A study of Homo sapiens with 6 samples.

Results

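The MYC network is a family of transcription factors that meet on a shared partner, MAX. It was followed here as 10 genes of the 17929 in a table of normalised read counts: the activators MYC, MYCN and MYCL, the partner MAX, and the antagonists MNT, MGA, MXD1, MXD3, MXD4 and MXI1. The 10 genes were chosen by symbol, and all 10 passed the filter on low values. The 6 libraries came from H9 and HES2, which are established human embryonic stem cell lines grown on irradiated mouse embryonic fibroblast feeders. Each line was infected with a virus carrying a control hairpin against luciferase (shLuc), or 1 of 2 hairpins against the nucleolar RNA helicase DDX18 (shDDX18#1 and shDDX18#3), and was collected on day 4. There is thus 1 library for each line and hairpin, giving 2 shLuc libraries and 4 knockdown libraries. The labels leave unsaid whether a line's libraries were grown as separate cultures. The p-values here therefore speak only of spread among these 6 libraries, and that spread may be technical. The series was designed to ask what DDX18 does in keeping such cells pluripotent.

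MYC, MYCN and MYCL proteins cannot bind DNA well alone. Each pairs with MAX through a basic helix-loop-helix leucine zipper, and the pair binds the E-box CACGTG and raises transcription, above all of genes for ribosome assembly, nucleotide synthesis and growth. The MXD proteins, MXI1, MNT and MGA compete for the same partner and the same E-boxes. MXD proteins, MXI1 and MNT recruit the SIN3 histone deacetylase complex, and MGA belongs to the Polycomb complex PRC1.6. In embryonic stem cells MYC and MYCN sustain growth and self-renewal, while MXD1 and MXD4 are best known from cells that leave the cycle and differentiate. E2F factors are known to bind the promoter of MYCN, and E-boxes are the shared target of activators and antagonists, so both motifs were looked up in the members' own promoters.

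The stretches below lie upstream of the start sites of MYCN, MXD4, MNT and MXD1. Of these, MYCN, MXD4 and MNT carry such letters and MXD1 does not, while a motif of MGA is described without its stretch. Sequences are from RefSeq on GRCh38.p14, while the expression table was made on hg19. Capitals mark the E-box CACGTG, or the E2F motifs TTTCCCGC, TTTCGCGC, TTTGGCGC and TTTGCCGC, all searched on both strands. Bases that lie in an annotated exon are left out.
MYCN, chr2:15940300-15940549, plus strand: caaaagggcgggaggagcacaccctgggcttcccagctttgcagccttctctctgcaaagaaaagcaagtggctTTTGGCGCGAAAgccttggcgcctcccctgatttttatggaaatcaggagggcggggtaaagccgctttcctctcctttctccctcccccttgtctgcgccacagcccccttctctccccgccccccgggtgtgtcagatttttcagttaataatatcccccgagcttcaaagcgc
MXD4, chr4:2262295-2262359, minus strand: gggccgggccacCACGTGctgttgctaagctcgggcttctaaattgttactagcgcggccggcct
MNT, chr17:2401119-2401310, minus strand: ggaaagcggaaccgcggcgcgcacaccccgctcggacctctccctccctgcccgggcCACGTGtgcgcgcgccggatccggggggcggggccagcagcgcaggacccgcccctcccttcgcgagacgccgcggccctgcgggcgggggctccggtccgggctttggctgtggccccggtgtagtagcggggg
MXD1, chr2:69914859-69915040, plus strand: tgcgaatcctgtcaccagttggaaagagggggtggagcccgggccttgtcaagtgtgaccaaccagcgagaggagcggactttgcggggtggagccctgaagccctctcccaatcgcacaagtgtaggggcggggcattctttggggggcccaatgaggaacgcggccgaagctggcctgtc
RefSeq start sites matched 9 of the 10 members, with 14 windows of 250 bases upstream. MYC had no window in the table used. In the MYCN window 2 E2F motifs overlap (TTTGGCGC from 176 bases upstream of the start, and GCGCGAAA, the other strand of TTTCGCGC, from 172 bases). MXD4 holds an E-box 238 bases upstream and MNT holds 1 at 193 bases. The window of the third start site of MGA holds an E2F motif 65 bases upstream. The shown stretch of MXD1 holds neither motif. An E-box was thus present in 2 of 14 windows, or 14.3%, against 6.35% of all 35116 promoter windows and 7.85% of windows of the genes tested. E2F motifs stood in 14.3% of the members' windows against 2.79% of all windows and 3.81% of those of the genes tested. A match describes these letters only.

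The knockdown left 12.6% to 37.6% of the DDX18 transcript of the same line's shLuc library, least in H9 shDDX18#1. Recovered reads ranged from 2668179 to 4271741 per library, so that 1 read was worth 0.224 to 0.408 counts per 1000000 reads (CPM), scaled by the authors to an effective library size. Fold changes are differences of log2(CPM + 1) and understate the change of low genes. A gene was called at an adjusted p under 0.05 in limma, with cell line as a block. The human pluripotent cell markers, 14 genes such as SOX2, NANOG and DNMT3B, were all present in every library, and their summed level was 7310 and 8559 CPM in shLuc and 4712 to 5915 CPM after knockdown. The summed level of the 16 fibroblast and feeder markers moved the other way. It was 1018 (HES2) and 3493 CPM (H9) in shLuc and 5108 to 42715 CPM after knockdown. The highest sum was in H9 shDDX18#1, where COL1A1 alone stood at 18386 CPM. Of the 16 markers, 10 rose and 6 did not pass, or 62.5% higher against 9.6% of all genes tested. DCN and FAP each stood at 0 in some HES2 libraries. Among those that did not pass, THY1 (-0.50) and S100A4 (-0.24) had negative estimates. In such bulk samples, fewer cells of a type and less RNA per cell cannot be told apart. The part of these cell type markers in the results below was not tested. Where the call of a member was lost without H9 shDDX18#1, its value without that library is given.

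Of the activators MYC and MYCN fell, and of the antagonists MXD1 and MXD4 rose. After DDX18 depletion MYC and MYCN fell to 42.3 ± 10.8 from 90.5 ± 2.64 CPM and 38.7 ± 11 from 131 ± 46.5 CPM (mean ± SD, n = 4 knockdown and n = 2 shLuc). MXD1 rose to 14 ± 2.73 from 3.53 ± 0.692 CPM, and MXD4 rose to 105 ± 30.9 from 54.0 ± 1.65 CPM. The other 6 members did not pass the test. Of all genes tested, 9.6% were called higher and 6.26% lower in this comparison, against 2 of 10 members in each direction. The edgeR and DESeq2 tests on recovered reads called the same 4 members. Each of the 10 members lay on the same side of the line's own shLuc in all 4 knockdown libraries, 4 of them above and 6 below. The hairpins of a line share its shLuc library, and of all genes tested 25.8% lay above and 27.9% below in this way.

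**Figure D1:**
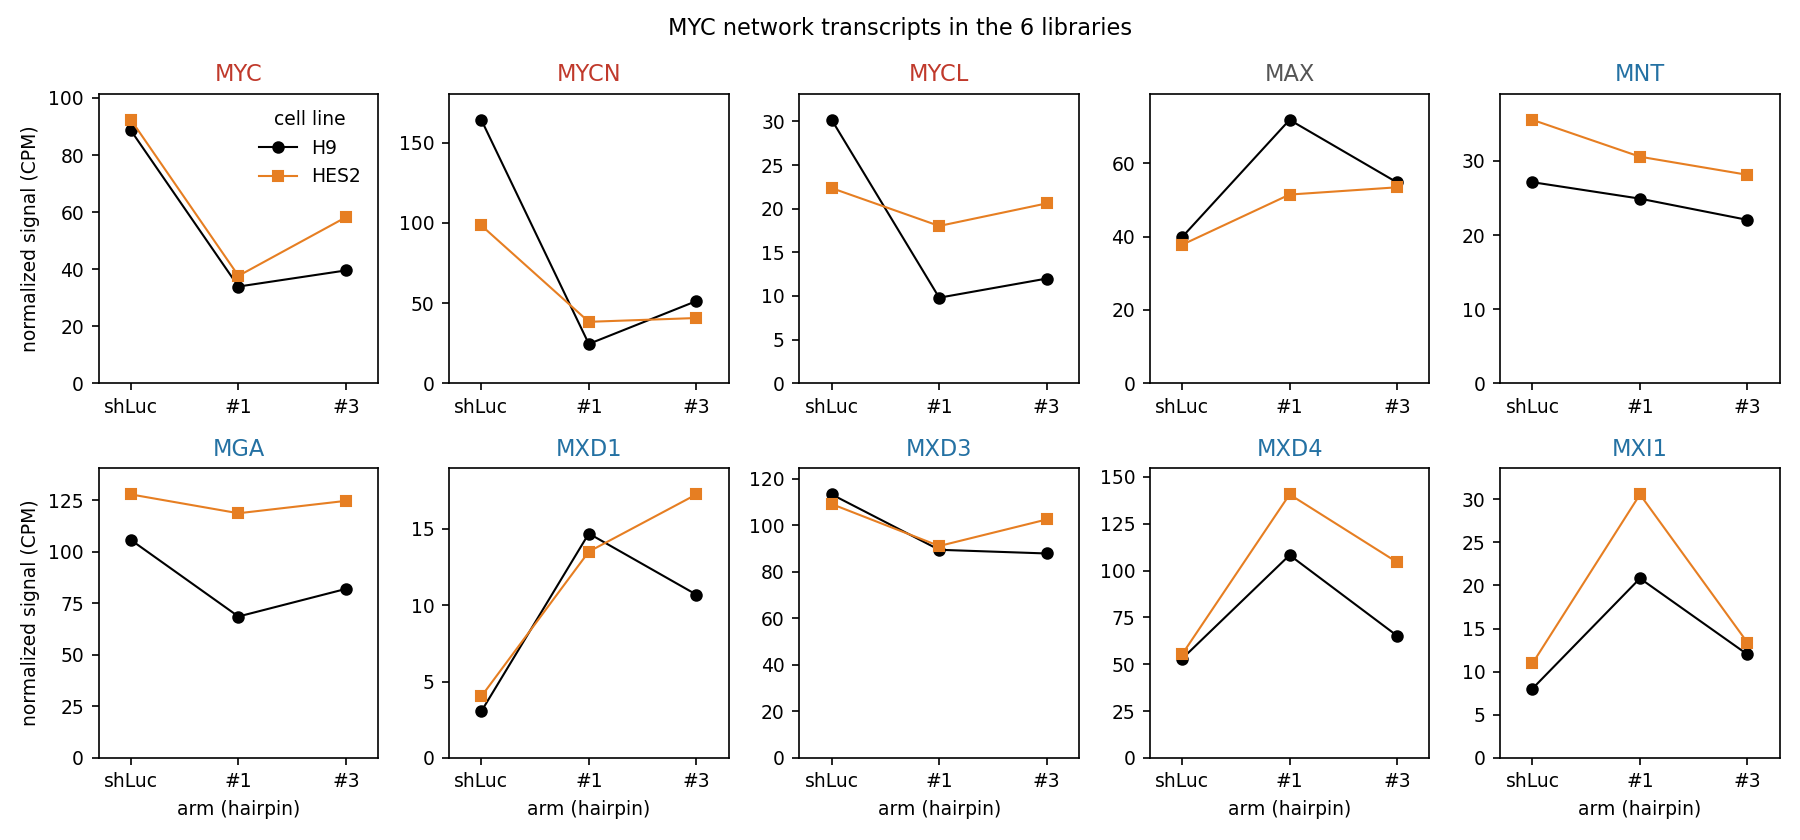
Normalised level in CPM (linear axes that start at 0 and differ between panels) of the 10 members with shLuc, shDDX18#1 (#1) and shDDX18#3 (#3), with 1 point per library and lines joining the libraries of a cell line. MYC, MYCN, MYCL and MXD3 lie lower, and MAX, MXD1, MXD4 and MXI1 higher, in all 4 knockdown libraries than in either shLuc library.

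MYC (ENSG00000136997), the activator with the broadest expression across tissues, had an H9 level of 88.6 CPM with shLuc, 33.9 with shDDX18#1 and 39.5 with shDDX18#3. In HES2 the levels were 92.3 CPM with shLuc, 37.6 with shDDX18#1 and 58.2 with shDDX18#3. Every knockdown library was below both shLuc libraries, and HES2 shDDX18#3 was the highest of the 4. Relative to the same line's shLuc, H9 kept 38.3% (shDDX18#1) and 44.6% (shDDX18#3) of the transcript, and HES2 kept 40.8% and 63.0%. The log2 fold change was -1.11 (SE 0.205, 95% confidence interval -1.58 to -0.64, limma adjusted p = 0.0137). Without H9 shDDX18#1 it was -1.04 (limma adjusted p = 0.0166). The call was lost without H9 shLuc (-0.96, limma adjusted p = 0.160) and without HES2 shLuc (-1.25, limma adjusted p = 0.101), when the comparison rests on a single line.

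MYCN (ENSG00000134323), the form best known from the embryo and the nervous system, had an H9 level of 164 CPM with shLuc, 24.5 with shDDX18#1 and 51.2 with shDDX18#3. In HES2 the levels were 98.4 CPM with shLuc, 38.3 with shDDX18#1 and 40.7 with shDDX18#3. The groups did not overlap, and H9 held both the highest and the lowest value. H9 kept 14.9% (shDDX18#1) and 31.2% (shDDX18#3) of the MYCN transcript, and HES2 kept 38.9% and 41.3%. The log2 fold change was -1.74 (SE 0.304, 95% confidence interval -2.44 to -1.04, limma adjusted p = 0.0115). Without H9 shDDX18#1 the value was -1.45 (limma adjusted p = 0.0024), and the call was lost without H9 shLuc (-1.30, limma adjusted p = 0.157) and without HES2 shLuc (-2.18, limma adjusted p = 0.0623). MYCNOS, an antisense transcript that shares 98 exon bases with MYCN, was at 0.557 to 2.77 CPM, and since the library kit keeps no strand, reads in the shared bases cannot be assigned.

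MYCL (ENSG00000116990), the third activator and the weakest transforming form, had an H9 level of 30.2 CPM with shLuc, 9.80 with shDDX18#1 and 12 with shDDX18#3. In HES2 the levels were 22.4 CPM with shLuc, 18.0 with shDDX18#1 and 20.6 with shDDX18#3. The knockdown libraries were low in H9, and close to shLuc in HES2. H9 kept 32.5% (shDDX18#1) and 39.7% (shDDX18#3) of the MYCL transcript, against 80.6% and 92.2% kept by HES2. Over both lines the log2 fold change was -0.80 (SE 0.293, limma adjusted p = 0.0987), which did not pass. The estimate was -0.20 without H9 shLuc and -1.40 without HES2 shLuc. In the authors' deposited table MYCL has a log2 fold change of -0.84 with a false discovery rate of 0.048. The difference between the lines' effects was 1.19 (95% confidence interval 0.14 to 2.24, unadjusted p = 0.0311 and adjusted p = 0.9998 in limma), so it did not pass either.

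MAX (ENSG00000125952), the partner through which MYC, MYCN and MYCL bind E-boxes, had a positive estimate. It had an H9 level of 39.9 CPM with shLuc, 71.9 with shDDX18#1 and 54.8 with shDDX18#3, and HES2 levels of 37.8, 51.5 and 53.5 CPM in the same order. All 4 knockdown libraries were above both shLuc libraries, with H9 shDDX18#1 apart from the other 3. The log2 fold change was 0.55 (SE 0.169, 95% confidence interval 0.16 to 0.94, limma adjusted p = 0.0602) and did not pass. It passed in the comparison of shDDX18#1 alone (0.64, limma adjusted p = 0.0301). That call was lost under 6 alternatives, among them leaving out H9 shDDX18#1 (0.43, limma adjusted p = 0.223).

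MXD1 (ENSG00000059728), the founding MXD protein, was the lowest member in shLuc and had the highest estimate among the members. It had an H9 level of 3.05 CPM with shLuc, 14.7 with shDDX18#1 and 10.7 with shDDX18#3, and HES2 levels of 4.02, 13.5 and 17.3 CPM in the same order. These levels rest on few reads, 11 and 18 in the shLuc libraries and 33 to 62 in the knockdown libraries. The ratio to the line's own shLuc lay between 3.36 and 4.83, and the lowest bound of the 4 counting intervals, which cover counting error only, was 1.73. The log2 fold change was 1.72 (SE 0.266, 95% confidence interval 1.11 to 2.33, limma adjusted p = 0.00751). Without H9 shDDX18#1 it was 1.63 (limma adjusted p = 0.0117). Leaving out the shLuc library of either line ended the call (1.70 without H9 shLuc, limma adjusted p = 0.0747, and 1.74 without HES2 shLuc, limma adjusted p = 0.0866). Of the exon bases of MXD1, 3.73% are shared with SNRNP27 on the same strand.

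MXD4 (ENSG00000123933), the other MXD protein with a call, had an H9 level of 52.9 CPM with shLuc, 108 with shDDX18#1 and 65.2 with shDDX18#3. In HES2 the levels were 55.2 CPM with shLuc, 141 with shDDX18#1 and 104 with shDDX18#3. The groups did not overlap, and in each line shDDX18#1 was the higher of the hairpins. The log2 fold change was 0.89 (SE 0.237, 95% confidence interval 0.34 to 1.43, limma adjusted p = 0.0406). For MXD4 the authors' deposited table gives 0.93 with a false discovery rate of 0.0036. This call sat near the threshold. It was lost without H9 shDDX18#1 (0.77, limma adjusted p = 0.0542), without each of the other libraries except H9 shDDX18#3 (limma adjusted p from 0.0728 to 0.308), without the line block (limma adjusted p = 0.0852) and without the intensity trend (limma adjusted p = 0.101).

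MXI1 (ENSG00000119950), an MXD-type repressor also called MXD2, had an H9 level of 8.03 CPM with shLuc, 20.8 with shDDX18#1 and 12 with shDDX18#3. In HES2 the levels were 11 CPM with shLuc, 30.6 with shDDX18#1 and 13.4 with shDDX18#3. Both shDDX18#1 libraries were far above their shLuc, with ratios of 2.59 and 2.79, and both shDDX18#3 libraries only somewhat above it, with ratios of 1.49 and 1.22. Over both hairpins the log2 fold change was 0.87 (SE 0.357, limma adjusted p = 0.133) and did not pass.

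The remaining antagonists, MNT, MGA and MXD3, had small negative estimates and none passed. MNT (ENSG00000070444), which is present in proliferating and resting cells alike, stood at 27.1 and 35.5 CPM in shLuc and 22.0 to 30.6 CPM after knockdown, so the groups overlapped (log2 fold change -0.24, SE 0.174, limma adjusted p = 0.377). MGA (ENSG00000174197), a very large protein with both a T-box and a MAX-binding domain, stood at 106 and 128 CPM in shLuc and 68.6 to 125 CPM after knockdown (-0.28, SE 0.159, limma adjusted p = 0.255). MGA thus also overlapped between the groups. MXD3 (ENSG00000213347), which unlike the other MXD proteins is known from dividing cells, stood at 113 and 109 CPM in shLuc and 87.8 to 102 CPM after knockdown. Its groups did not overlap, but the difference was small (-0.26, SE 0.138, 95% confidence interval -0.58 to 0.06, limma adjusted p = 0.224). In the annotation used, 22.5% of the exon bases of MXD3 are shared with PRELID1 on the opposite strand and 18.0% with RAB24 on the same strand. PRELID1 stood at 147 to 208 CPM, so the level of MXD3 is uncertain. Of the exon bases of MNT, 12.2% are shared with the antisense AC006435.1, which stood at 3.89 to 11.2 CPM. Transcripts on the opposite strand also share 4.46% of the exon bases of MYCL, 4.45% of MXI1 and 2.89% of MGA.

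Counted by the raw levels, 4 members lay wholly above shLuc in the knockdown libraries (MAX, MXD1, MXD4 and MXI1) and 4 wholly below (MYC, MYCN, MYCL and MXD3). Over all genes tested, 19.8% lay wholly above and 20.9% wholly below.

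**Figure D2:**
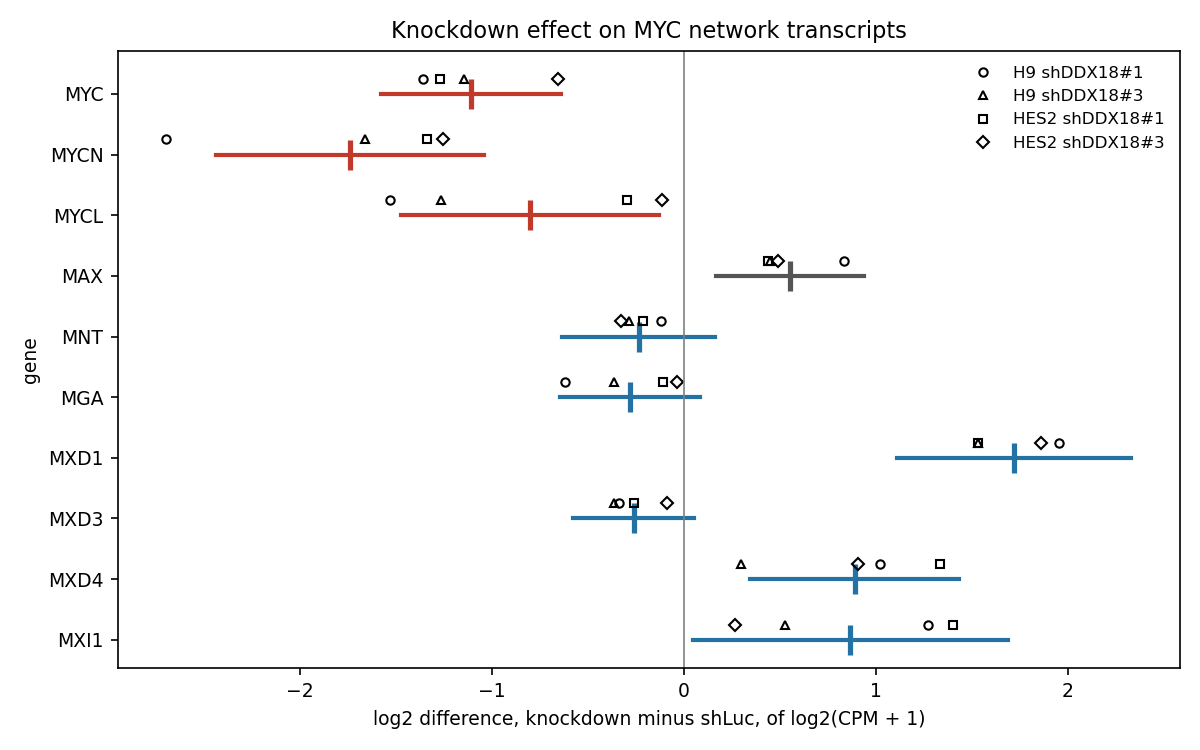
Difference in log2(CPM + 1) between the 4 knockdown and the 2 shLuc libraries for each member, with its 95% confidence interval from limma. The vertical tick is the estimate and the bar its interval (red activators, grey MAX, blue antagonists), and open symbols are the 4 knockdown libraries minus the line's own shLuc. The intervals of MYC, MYCN and MYCL lie below 0 and those of MAX, MXD1, MXD4 and MXI1 above 0, of which MYC, MYCN, MXD1 and MXD4 passed after adjustment.

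Levels of different genes were compared per kilobase of exon, where the length counts every annotated exon of a gene, used in these cells or not. In shLuc the order was MYCN 50.5, MYC 30.1, MXD3 21.6, MAX 8.76, MXD4 7.66, MGA 6.62, MYCL 5.19, MNT 3.59, MXI1 2.06 and MXD1 0.557 CPM per kilobase (means, n = 2). No neighbours in this order overlapped in their ranges over the 2 shLuc libraries, though the gap could be small (MGA lowest 5.99, MYCL highest 5.96). Ranges over 2 libraries tend to be narrower than ranges over 4, so overlap cannot be compared between shLuc and knockdown. After knockdown the first 5 places were held by MXD3 18.0, MYCN 14.9, MXD4 14.8, MYC 14.1 and MAX 13.1 CPM per kilobase (means, n = 4), and each overlapped its neighbour in range. MGA followed at 5.58, apart from MAX. Then came MXI1 4.17, MNT 3.03, MYCL 2.98 and MXD1 2.21 CPM per kilobase, again with overlapping neighbours. In shLuc the activators MYCN and MYC thus stood above every other member. After knockdown the ranges of MXD3, MXD4 and MAX overlapped theirs, and the place of MXD3 is uncertain, as its level is.

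The activators summed in H9 to 98.6 CPM per kilobase with shLuc, 22.6 with shDDX18#1 and 35.2 with shDDX18#3. In HES2 they summed to 73.0, 30.8 and 39.1 CPM per kilobase in the same order. The knockdown sums were all below the shLuc sums. The antagonists summed to 40.8, 46.3 and 37.7 CPM per kilobase in H9 and 43.3, 56.6 and 50.6 in HES2, and there the groups overlapped. The ratio of activators to antagonists was in H9 2.42 with shLuc, 0.490 with shDDX18#1 and 0.934 with shDDX18#3, and 1.68, 0.545 and 0.773 in HES2. It was therefore above 1 in both shLuc libraries and below 1 in all 4 knockdown libraries, with means of 2.05 ± 0.518 (SD, n = 2) and 0.685 ± 0.206 (SD, n = 4). Without H9 shDDX18#1 the knockdown mean was 0.750. MXD3, whose level is uncertain as given above, held 22.0 of the 40.8 CPM per kilobase of the antagonists in H9 shLuc. In HES2 shLuc it held 21.2 of 43.3, so the ratio shares this uncertainty. Summed without division by length, the ratios were 0.767 and 0.276, so the crossing of 1 belongs to the scale per kilobase, while the fall is present on both. No test was made on these sums, since the members were chosen with results known.

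**Figure D3:**
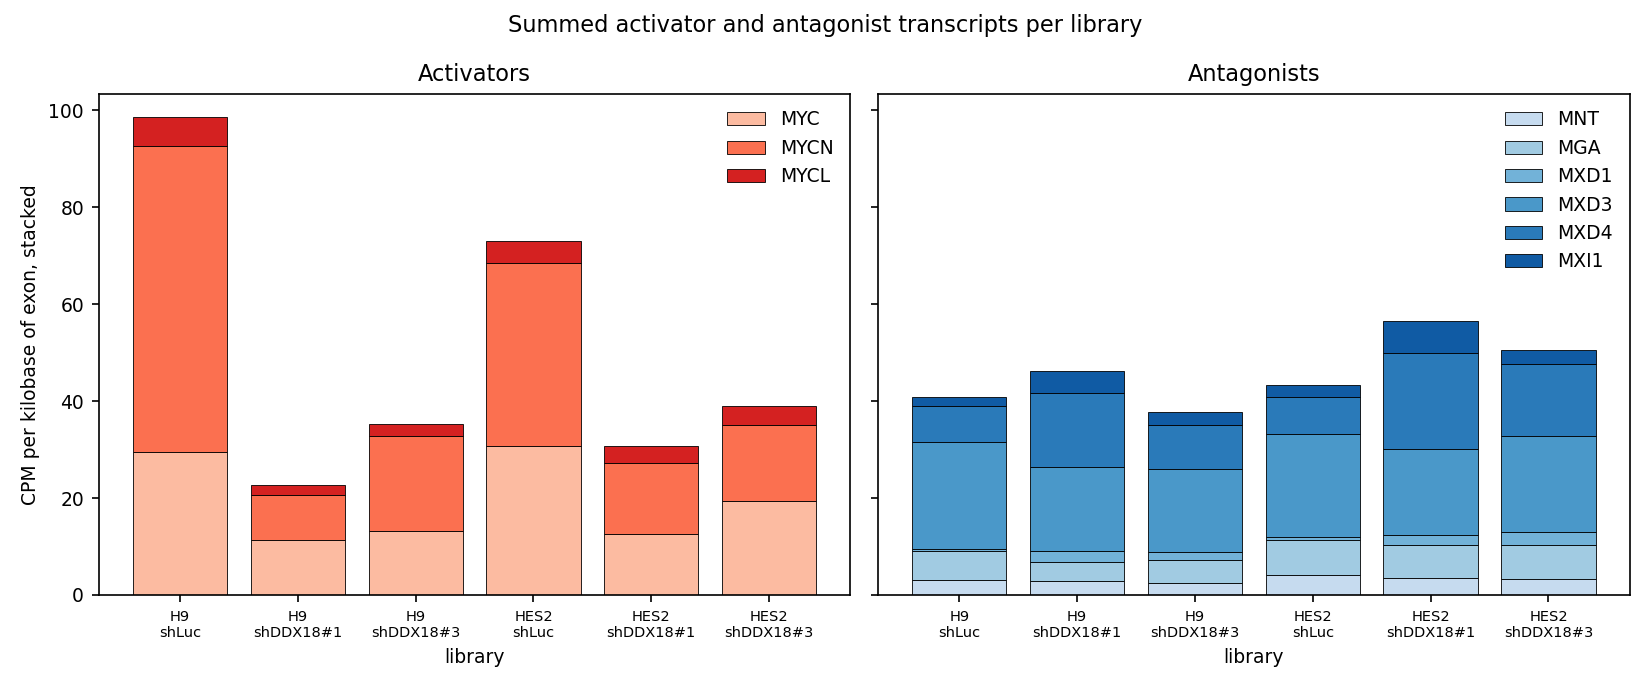
Summed CPM per kilobase of exon of the activators (MYC, MYCN, MYCL) and of the antagonists (MNT, MGA, MXD1, MXD3, MXD4, MXI1) in each library, as bars stacked by gene from 0. The activator bars are 98.6 and 73.0 in the shLuc libraries and 22.6 to 39.1 in the knockdown libraries, while the antagonist bars lie between 37.7 and 56.6 throughout.

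The antagonists can be split by the sign of their own estimates, a choice that fixes the direction of what follows and makes it a description only. MXD1, MXD4 and MXI1, the 3 with positive estimates, together went from 10.3 ± 0.792 (n = 2) to 21.2 ± 6.23 CPM per kilobase (n = 4), or from 24.4% to 43.7% of the antagonist sum. MNT, MGA and MXD3, the 3 with negative estimates, together went from 31.8 ± 1.00 to 26.6 ± 2.97 CPM per kilobase. Among the activators, MYCN made up 64.0% of the sum in H9 shLuc and 51.8% in HES2 shLuc, and 40.0% to 55.9% in the knockdown libraries.

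With shDDX18#1 alone, MYC and MYCN fell, by -1.32 (limma adjusted p = 0.00141) and -2.02 (limma adjusted p = 0.0017) on the log2 scale. MAX, MXD1, MXD4 and MXI1 rose, by 0.64, 1.74, 1.18 and 1.34 (limma adjusted p = 0.0301, 0.0045, 0.0022 and 0.0055). The call of MXD1 was lost without H9 shDDX18#1 (1.45, limma adjusted p = 0.058), as was that of MAX, given above. These 4 members higher and 2 lower of 10 stand beside 14.4% and 13.4% of all genes tested. With shDDX18#3 alone, MYC (-0.90, limma adjusted p = 0.0175) and MYCN (-1.46, limma adjusted p = 0.0166) fell and MXD1 rose (1.70, limma adjusted p = 0.0124), beside 6.96% of all genes called higher and 3.69% lower. MXD4 (0.60, limma adjusted p = 0.0659), MAX (0.47, 0.135) and MXI1 (0.40, 0.353) did not pass with this hairpin. Both comparisons share the shLuc libraries. The calls of MYC, MYCN and MXD1 with shDDX18#3 were each lost without the intensity trend and without either shDDX18#3 library.

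The difference between the hairpins was tested directly, and no member passed. In limma 0% of all genes were called in either direction, although 1147 genes were higher and 1389 lower at an unadjusted p under 0.05, 3 members among them, and no other tool was run on this difference. MXI1 was 0.94 higher with shDDX18#1 than with shDDX18#3 (95% confidence interval 0.38 to 1.51, limma adjusted p = 0.167) and MXD4 was 0.57 higher (0.17 to 0.98, limma adjusted p = 0.213). MYC was lower with shDDX18#1 by an estimate of -0.42 (-0.82 to -0.01, limma adjusted p = 0.344). For MXD1 the estimate was 0.05, with an interval from -0.66 to 0.75, which leaves room for a difference in either direction. DDX18 itself was at 19.2 CPM with shDDX18#1 and 47.3 with shDDX18#3 in H9, and at 39.3 and 60.4 CPM in HES2. Whether the estimates of the members follow the level of DDX18 was not tested.

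**Figure D4:**
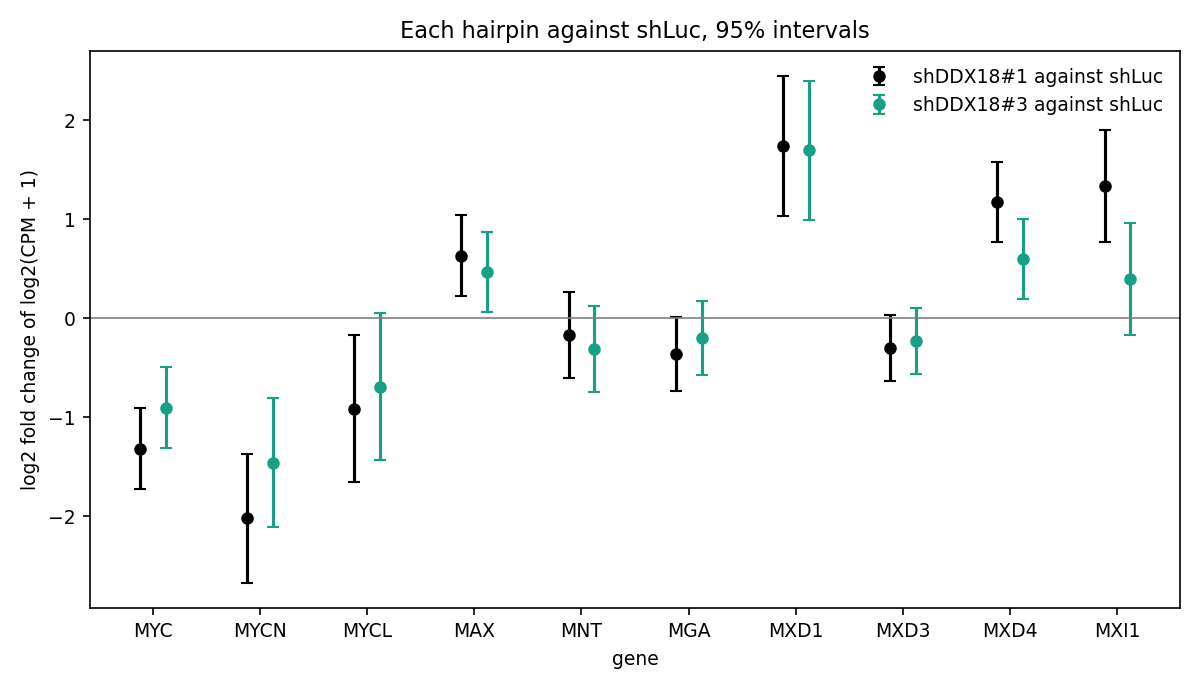
Log2 fold change of each member against shLuc with shDDX18#1 (black) and with shDDX18#3 (green), from limma, with bars for the 95% confidence interval. MXI1 lies at 1.34 and 0.40 for the hairpins in that order, whereas MXD1 lies at 1.74 and 1.70.

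Between the lines at matched hairpin, no member passed (255 genes, or 1.44%, were called higher in HES2 and 3.98% lower). By limma 2 members had an unadjusted p under 0.05, and edgeR and DESeq2 likewise called none. MGA was the nearest, 0.55 higher in HES2 (95% confidence interval 0.25 to 0.86, limma adjusted p = 0.0524). MGA passed under 6 alternatives, among them all 3 other scalings and leaving out H9 shLuc (0.69, limma adjusted p = 0.00512), and it stood at 119 to 128 CPM in all 3 HES2 libraries against 68.6 to 106 CPM in H9. MXD4 was next, 0.37 higher in HES2 (0.04 to 0.70, limma adjusted p = 0.189). The knockdown effect itself did not differ detectably between the lines for any member in limma, where 0% of all genes passed and 342 were higher and 446 lower in HES2 at an unadjusted p under 0.05. MYCL, given above, was the 1 member among these, and no other tool was run on this difference. For MYCN the estimate was 0.88, with an interval from -0.46 to 2.23. The intervals are wide, as each line has 1 shLuc library.

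The genes that MYC is known to act on, in lists drawn from general knowledge, were then set beside the members. These lists and those further below were chosen with earlier results of these data known, so their shares are a description only. Of 65 transcripts known to be activated by MYC, 64 were tested, 32 fell, 2 rose and 30 did not pass, with a median log2 fold change of -0.76 against -0.02 over all genes. Called lower were thus 50% of the list against 6.26% of all genes. AMD1, an enzyme of polyamine synthesis, fell from 282 ± 18.9 CPM (n = 2) to 137 ± 11.7 CPM (n = 4), by -1.03 on the log2 scale (SE 0.143, limma adjusted p = 0.00503). UBTF, which loads RNA polymerase I at the ribosomal DNA, fell from 286 ± 12.2 to 156 ± 22.7 CPM, and FASN, the fatty acid synthase, fell from 1285 ± 38.7 to 700.5 ± 119 CPM. RCC1, the exchange factor of the Ran GTPase, fell from 138 ± 10.2 to 60.2 ± 15.8 CPM. The 2 that rose, chosen after their values were seen, were TFRC, the transferrin receptor (0.57), and ODC1, an enzyme of polyamine synthesis like AMD1 (0.65). Their mRNAs went from 106 to 157 CPM and from 287 to 452 CPM.

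The same list gave 45 genes lower and 5 higher with shDDX18#1 (median -0.90), or 70.3% and 7.81% of the list against 13.4% and 14.4% of all genes tested. With shDDX18#3 it gave 21 lower and 1 higher (median -0.52), or 32.8% and 1.56% against 3.69% and 6.96%. Without H9 shDDX18#1, 31 of the list fell over both hairpins. The count depended on other libraries and settings. It was 1 without H9 shLuc, 0 without HES2 shLuc, 5 without HES2 shDDX18#1, 21 without HES2 shDDX18#3, 18 without the line block and 2 without the intensity trend. DESeq2 and edgeR called 34 and 31. Upstream windows of this list held the E-box in 20.9% (86 windows of the 54 matched genes) against 7.85% of windows of the genes tested. In the list of transcripts repressed by MYC, described next, the share was 15.8% (3 of 19 windows), also above that of the genes tested. Among all genes that fell the share was 10.02%, and among all that rose it was 6.24%.

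Of 22 transcripts known to be repressed by MYC, all were tested, 13 rose, none fell and 9 did not pass, with a median of 1.45. Called higher were 59.1% of the list against 9.6% of all genes. GADD45A, a stress-induced growth arrest gene, stood at 33.5 CPM in H9 shLuc and 19.7 in HES2 shLuc, and at 78.2 to 122 CPM after knockdown (1.98, SE 0.176). NDRG1, induced when cells stop dividing and differentiate, stood at 8.86 and 4.92 CPM in shLuc and at 39.5 to 56.8 CPM after knockdown (2.66, SE 0.242). In both genes the groups were far apart. The collagen genes COL1A1 (3.94) and COL3A1 (3.98) also rose, but these, with COL1A2 and PDGFRB, belong to the fibroblast markers as well. In H9 shDDX18#1, which has the highest fibroblast marker sum, COL1A1 stood at 18386 CPM against 1124 CPM in HES2 shDDX18#1. Outside the fibroblast list, GADD45A stood at 122 and 106 CPM in these libraries, CDKN1A at 1238 and 404 CPM and THBS1 at 1249 and 255 CPM. CDKN1A and THBS1 were named after their values were seen. The part of the fibroblast markers in these values was not tested. Without H9 shDDX18#1 the count of 13 did not change. It was 8 without HES2 shLuc.

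Lists of protein partners of the network had smaller medians. Of 17 coactivators of MYC, 2 fell and none rose (median -0.16), or 11.8% lower against 6.26% of all genes tested. These were ACTL6A (-0.77, limma adjusted p = 0.023), an actin-related subunit of chromatin remodelers, and RUVBL2 (-0.46, limma adjusted p = 0.048), an ATPase of the TIP60 and INO80 complexes. Of 15 genes of the SIN3 complex, through which MXD proteins and MNT repress, 3 fell and none rose (median -0.28), or 20% lower against the same 6.26%. RBBP7, a histone chaperone, stood at 205 and 261 CPM in shLuc and 122 to 153 CPM after knockdown (-0.72), the deacetylase HDAC2 had -0.68 and the SIN3 subunit SUDS3 -0.52. Of the complex PRC1.6 that contains MGA, 13 of 14 listed genes were tested, 2 fell and 1 rose, or 15.4% and 7.69% against 6.26% and 9.6% of all genes tested. HDAC2 and the chromodomain protein CBX3 (-0.64) fell, and YAF2, a RING1-binding subunit, rose (1.29, limma adjusted p = 0.042) from 3.35 and 3.88 CPM to 6.53 to 18.0 CPM.

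Among 19 regulators of MYC protein stability and modification, 5 fell and none rose, or 26.3% lower against 6.26% of all genes tested. The median of this list was -0.11, near the -0.02 of all genes. The phosphatase inhibitor SET had a log2 fold change of -0.78, and the deubiquitinases USP7, USP28 and USP37 had -0.63, -0.69 and -0.71. PLK1, the mitotic kinase, was the fifth (-0.95, limma adjusted p = 0.047, named after its value was seen). FBXW7, the substrate receptor best known for degrading MYC, did not pass (0.27, limma adjusted p = 0.286, also named after its value was seen). Of 11 proteins known to bind MYC mRNA or its upstream element, 3 fell and none rose (median -0.59), or 27.3% lower against 6.26% of all genes tested. These were AGO2 (-0.91, limma adjusted p = 0.008), CNBP (-0.68, limma adjusted p = 0.018) and HNRNPD (-0.70, limma adjusted p = 0.046). AGO2 is the slicing Argonaute, CNBP a zinc finger protein and HNRNPD a protein of AU-rich element decay. Transcript levels say nothing here of the protein.

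**Figure D5:**
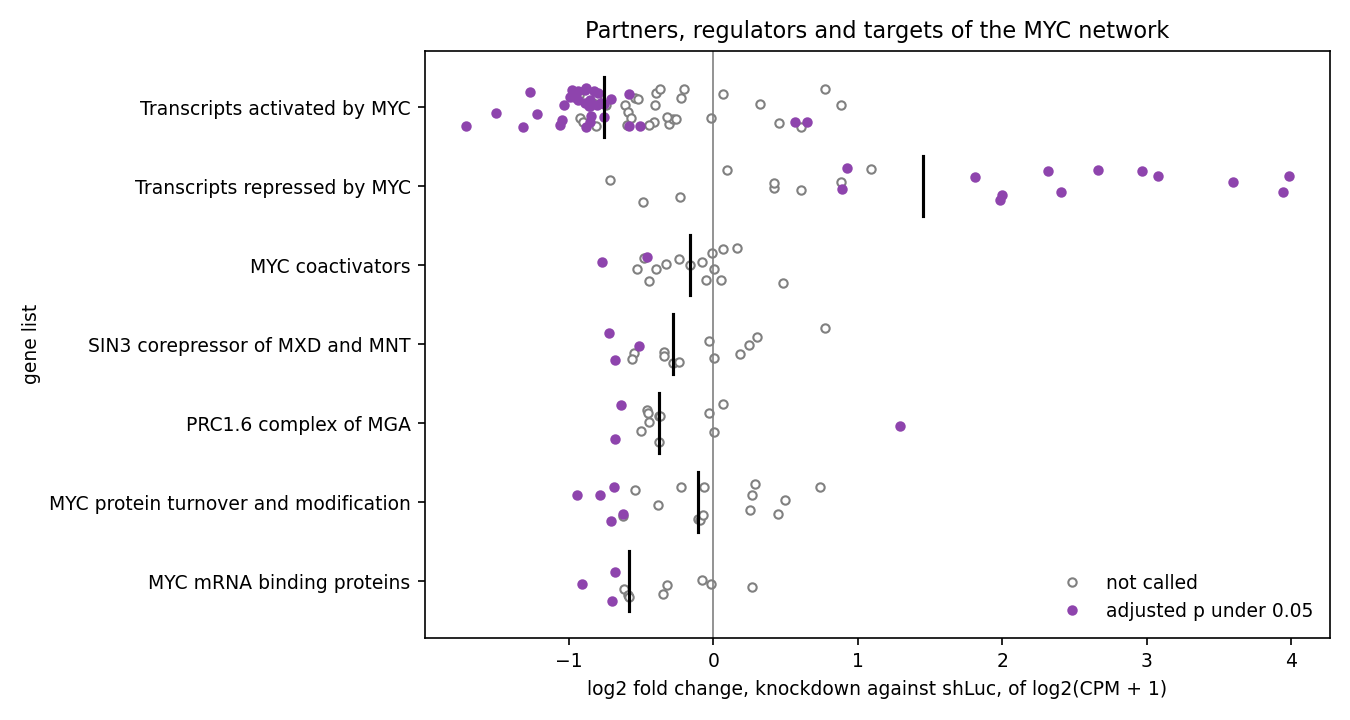
Log2 fold change, knockdown against shLuc, of each tested gene in the lists of partners, regulators and targets of the network, with 1 point per gene (filled where the limma adjusted p is under 0.05, spread vertically for view only) and a vertical bar at the median of each list. Transcripts known to be activated by MYC have a median of -0.76 and those known to be repressed 1.45, while coactivators and turnover genes have medians of -0.16 and -0.11.

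MLX and its partners MLXIP and MLXIPL form a parallel branch that shares the antagonists MNT, MXD1 and MXD4 and senses glucose. None of the 3 passed: MLX had -0.12 (limma adjusted p = 0.586), MLXIP -0.29 (limma adjusted p = 0.353) and MLXIPL -0.27 (limma adjusted p = 0.583). Of the targets by which this branch is usually read, TXNIP stood at 17.2, 32.7 and 14.6 CPM in H9 and at 63.0, 40.5 and 19.5 CPM in HES2 (shLuc, shDDX18#1, shDDX18#3), and ARRDC4 at 9.41, 18.8 and 13.9 CPM in H9 and at 20.8, 14.8 and 11.4 CPM in HES2. Neither passed (TXNIP -0.40, limma adjusted p = 0.569, and ARRDC4 0.04, limma adjusted p = 0.944), and ARRDC4 was above shLuc in both H9 knockdown libraries and below it in both of HES2.

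Of 8 listed neighbours and related transcripts of the members, 3 had a row. MYCNOS, opposite MYCN, stood at 10 and 7 reads in shLuc and at 2 reads in each knockdown library, which is below the floor of 3 reads (-0.90, limma adjusted p = 0.088). MYCBP, a small MYC-binding protein, stood at 17.9 and 18.3 CPM in shLuc and 9.80 to 13.8 CPM after knockdown (-0.56, limma adjusted p = 0.131). PVT1, the long noncoding RNA next to MYC, stood at 20.1 and 23.8 CPM in shLuc and 18.0 to 33.4 CPM after knockdown, with overlapping groups (0.18, limma adjusted p = 0.567).

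Over the 6 libraries, described without a test since all genes share these libraries and their depth, MYC was most like LYAR (Pearson r = 0.999), SLC39A10 and SEPHS1. LYAR, a nucleolar protein of ribosomal RNA processing, stood at 62.3, 26.5 and 30.8 CPM in H9 and at 63.3, 29.9 and 41.5 CPM in HES2. The pattern of MYCN was most like that of USP7 (r = 0.998), PPM1G and ZNF574, that of MYCL like USP39, TSR2 and VCP, and that of MAX like SEL1L, NUMBL and STARD13. MXD1 was most like TMEM19, SUCO and ADGRL4, MXD4 like PRR14, GRB10 and PTGR1, and MXI1 like TM9SF3, UNC93B1 and TSPAN4. For MNT the leading genes were C22orf39, CERK and ENDOG, for MGA they were QPCTL, TXNDC16 and PDS5A, and for MXD3 they were PSMB4, SF3B2 and KIAA0100. Such likeness was common: of 10475 genes compared, 314 had r over 0.95 with MYC, 299 with MYCN, 119 with MXD1 and 36 with MNT. Among the members, MYC and MYCN had r = 0.884, MYCN and MXD1 -0.944, and MXD4 and MXI1 0.915 (n = 6 libraries each, which fall into the shLuc and knockdown groups).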

How the data were processed

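RNA-seq of 6 libraries was used. Per the submitters' processing notes, the tools were edgeR 3.26.8, HTSeq 0.11.2, Bowtie2 2.3.4.3 and SAMtools 1.9, with hg19 as the build and no role stated. The table the authors deposited lists 17929 genes and a normalised signal for each library. Tested here, every value is a whole number of reads (tolerance 0.001, 100% of values) on a CPM scale. The authors' deposited table further gives per gene a p-value, its false discovery rate, a likelihood ratio score, and the log2 fold change and abundance. Its fold changes and false discovery rates were set beside values computed here, and its score and abundance were not used.

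The 17768 genes that reached 1 CPM in 2 or more libraries were tested on log2(CPM + 1), with limma 3.58.1 in R 4.3.3 (intensity trend, cell line as block, Benjamini-Hochberg adjustment over all genes tested). Libraries of 1 line pair by label, and their deviations correlated with r from 0.363 to 0.654. Symbols came from the table for 15532 genes and from a name table for 600. Exon lengths and overlaps came from GENCODE 29 (GRCh38), and promoter windows from RefSeq. Counting intervals are 95% and exact, and cover counting error only. The scripts were tested on simulated data.

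All 10 members were named. Of each other list up to 4 called genes with the smallest p were named, all measured genes of the MLX branch, its targets and the neighbours, and the 3 genes most like each member. The members and lists were chosen with earlier results of these data known. Alternatives were other pseudocounts, filters, scalings and priors, no line block, edgeR 4.0.16 and DESeq2 1.42.0 on recovered reads, and each library left out in turn. The counts of the lists of MYC targets under these alternatives were added after seeing the data.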

Additional observations from a re-analysis of the deposited data

Results flagged for a closer look

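Of 47 genes examined, MAX and COL3A1 each had 1 knockdown library far from the other 3, where about 5% of groups would be marked by chance. For MAX, H9 shDDX18#1 stood at 71.9 CPM and its gap to the next library was 0.838 of the range of the 4 knockdown libraries. For COL3A1, H9 shDDX18#1 stood at 3659 CPM with a gap of 0.835 of the range. The same library has the highest sum of fibroblast markers (42715 CPM), whose part in either value was not tested.

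ARRDC4, a target of the MLX branch, moved up in both H9 knockdown libraries (0.93 and 0.52 on the log2 scale) and down in both HES2 knockdown libraries (-0.46 and -0.81). The difference between the lines' effects was -1.36 (SE 0.509, 95% confidence interval -2.57 to -0.16, unadjusted p = 0.0321 and adjusted p = 0.9998 in limma), and did not pass.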

How the results depend on the processing

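Of 690 alternative values of the members over 4 comparisons, 642 kept their direction and side of the threshold, 29 lost a call, 14 gained a call and 5 changed sign. Without the line block (no replicate block), 790 genes rose and 409 fell (1706 and 1113 with it), 1 member rose (MXD1) and 18 transcripts activated by MYC fell. Without the intensity trend, the counts were 886 and 342 genes, 1 member higher and 2 activated transcripts lower. Leaving out 1 library gave 185 to 1986 genes higher, 7 to 1604 lower, 0 to 3 members higher, 0 to 2 members lower, 0 to 36 activated transcripts lower and 8 to 14 repressed transcripts higher. The lowest of each came without a shLuc library, when the comparison rests on 1 line. Without division by length the activator to antagonist ratio was 0.767 in shLuc and 0.276 after knockdown.

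The sign changed for 3 values, none of them called: HES2 against H9 for MYCN (-0.53 to 0.15 with a library left out, highest without either shLuc library) and MXD3 (-0.0137 to 0.123, lowest without either shDDX18#3 library), and MGA with shDDX18#3 (-0.41 to 0.0105, highest without H9 shLuc). The cause was not tested. Scaling to total reads moved the median of all genes in HES2 against H9 from 0.03 to 0.15 and the share of calls that were higher from 26.5% to 45.4%. At 2668179 to 4271741 reads per library, MXD1 and MYCNOS are the members and neighbours most limited by depth.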
